A study of Mus musculus with 14 samples.

Results

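Zfp787, Zfp444 and the imprinted Peg3 domain lie in the proximal part of mouse chromosome 7, and H3K27me3 was examined there in mouse embryonic stem cells (mESCs) by Cut&Tag. The members were all peaks of the deposited table on chromosome 7 within 10 kb of the RefSeq gene body of Zfp787, Zfp444, Zim1, Peg3 or Usp29, which gave 20 of 74458 peaks, and all 20 passed the filter on low counts. Zfp787 was chosen by its measured H3K27me3 level in these libraries, which was low in the Hoxa deletion, so levels and fold changes of that comparison are given as a description without a test. The Peg3 domain is set beside it as the nearby imprinted region.

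Cut&Tag tethers the transposase Tn5 to an antibody on chromatin and sequences the DNA next to the mark. The mESCs were G4 cells, an F1 hybrid line of inbred mouse strains, grown with LIF on CD1 feeder cells, and all were edited by CRISPR-Cas9. The groups were cells with a homozygous deletion of most of the Hoxa cluster (3 libraries), of the Wnt6 locus (2 libraries) or of the Hmx1 locus (2 libraries), and unedited cells were not analysed here. Clones were screened for each deletion, but the labels name no clone for any library, so that a difference between deletions and a difference between clones cannot be told apart. The labels do not say that libraries came from separate cultures, and p-values then measure only the spread between these libraries, which may be technical.

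H3K27me3 is written by Polycomb repressive complex 2, which in stem cells settles on CpG-rich DNA of silent developmental genes. At imprinted loci the parental copies carry different chromatin, with DNA methylation on one and often histone modifications such as H3K27me3 on the other. The counts were not split by allele, so a level sums both copies. Zfp787 and Zfp444 encode C2H2 zinc finger proteins. Peg3 is a zinc finger gene expressed from the paternal copy, Usp29 is a paternally expressed gene of the ubiquitin-specific protease family that starts head to head with Peg3, and Zim1 is a maternally expressed zinc finger gene beside them.

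The promoter windows of the members are shown because they locate the peaks relative to the gene starts and show how CpG-rich these starts are. They come from RefSeq (GRCm38.p6) and run from 250 bases before to 50 bases after the start, written in the direction of the gene with every CpG in capitals. All 5 members had a window. That of Usp29 is not printed, since 263 of its bases are the other strand of the Peg3 window.
Zfp787 promoter, chr7:6155916-6156215, minus strand: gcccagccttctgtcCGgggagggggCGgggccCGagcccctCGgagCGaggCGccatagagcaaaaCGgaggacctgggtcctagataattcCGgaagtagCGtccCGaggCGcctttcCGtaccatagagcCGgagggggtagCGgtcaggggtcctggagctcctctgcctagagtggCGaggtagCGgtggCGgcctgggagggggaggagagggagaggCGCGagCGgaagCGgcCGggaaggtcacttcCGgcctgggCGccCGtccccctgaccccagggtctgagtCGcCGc
Zfp444 promoter, chr7:6172263-6172562, plus strand: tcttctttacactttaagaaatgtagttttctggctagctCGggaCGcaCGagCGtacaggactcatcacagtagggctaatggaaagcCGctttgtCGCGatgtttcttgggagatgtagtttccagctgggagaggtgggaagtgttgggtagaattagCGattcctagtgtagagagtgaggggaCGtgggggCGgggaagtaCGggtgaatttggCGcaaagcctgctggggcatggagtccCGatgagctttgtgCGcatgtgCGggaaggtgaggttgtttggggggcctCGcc
Zim1 promoter, chr7:6696383-6696682, minus strand: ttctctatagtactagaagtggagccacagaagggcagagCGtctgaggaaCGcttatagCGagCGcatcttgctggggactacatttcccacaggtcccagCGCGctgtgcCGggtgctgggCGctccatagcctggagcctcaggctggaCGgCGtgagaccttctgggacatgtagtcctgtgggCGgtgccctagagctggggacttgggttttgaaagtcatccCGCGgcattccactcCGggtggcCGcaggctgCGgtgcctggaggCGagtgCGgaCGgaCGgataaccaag
Peg3 promoter, chr7:6730370-6730669, minus strand: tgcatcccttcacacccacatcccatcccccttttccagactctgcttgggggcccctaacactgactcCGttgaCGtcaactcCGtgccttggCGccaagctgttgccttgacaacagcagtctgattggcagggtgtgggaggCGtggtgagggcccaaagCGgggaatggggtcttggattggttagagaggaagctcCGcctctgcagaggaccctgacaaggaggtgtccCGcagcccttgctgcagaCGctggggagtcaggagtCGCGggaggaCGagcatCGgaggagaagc

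The Zfp787 window held 27 CpG dinucleotides, the Zim1 window 20, the Usp29 window 17, the Zfp444 window 16 and the Peg3 window 13. The median over 32851 windows was 7, so that all members were richer in CpG than the typical promoter. The windows of Zfp787, Zfp444 and Zim1 lay wholly within a peak, and 43.9% of all windows overlapped a peak at least in part. Those of Peg3 and Usp29 overlapped none, and the nearest peak ended 1474 bp from the Peg3 window, inside the Peg3 gene body. The hexamer TGCCGC, read on either strand, is bound by ZFP57 when methylated, a zinc finger protein that protects imprints. It occurred once in the Zim1 window and in none of the other 4, against 11.6% of all windows with a match. The hexamer was not looked for outside these windows, so nothing about the rest of the Peg3 domain is read from this.

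Zfp787 had 3 peaks. The leading peak of the locus, taken as that with the highest mean level over the 7 libraries, lay at chr7:6131781-6133471. The gene body of Zfp787 runs from 6131489 to 6159380 on the minus strand, so this peak sits at the 3′ end of the gene, 22.4 kb from the promoter window. That window ends at 6156215, inside the gene body, so the body reaches further upstream than the start used for the window. The peak that covers the window ends at 6156376, and no peak lay between it and the upstream end of the body. The promoter of Zfp787 here means this window only. Whether it is exonic is not given, since the annotation used here has no exons.

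At the 3′ end of Zfp787, H3K27me3 was almost missing in the Hoxa deletion and strong in both other deletions. The raw counts in replicates 1 to 3 of the Hoxa deletion were 18, 83 and 45. They were 823 and 2910 in the Wnt6 deletion and 471 and 2113 in the Hmx1 deletion. After scaling to a common library size (CPM, with TMM factors), the level was 2.12, 3.17 and 2.90 CPM in the Hoxa deletion. It was 84.7 and 76.0 CPM in the Wnt6 deletion and 79.6 and 83.2 CPM in the Hmx1 deletion. All 3 Hoxa libraries lay far below all 4 others. The Hoxa libraries averaged 2.73 ± 0.548 CPM (SD, n = 3) and the others 80.9 ± 3.86 CPM (SD, n = 4), which is 3.37% of the level in the other deletions and a log2 fold change of -4.82. Fewer cells with the mark and less of the mark per cell cannot be told apart in such bulk libraries.

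Per kilobase of peak, the 3′ end peak changed its place among all peaks. In the Wnt6 and Hmx1 deletions it had 47.9 ± 2.28 CPM per kb (SD, n = 4) and exceeded between 94.0% and 94.6% of the 74458 peaks. In the Hoxa deletion it had 1.61 ± 0.324 CPM per kb (SD, n = 3) and exceeded between 0.435% and 1.04% of them. For comparison, the Hoxa stretch missing from the same libraries held 46 peaks, from 52163046 to 52274461 on chromosome 6. Over these the level was 0.0650 ± 0.0166 CPM per kb (SD, n = 3). Whether the DNA of the Zfp787 3′ end is intact in these cells was not tested. Outside the deleted stretches, none of the other peaks among the 30040 with at least 5 CPM in the Wnt6 and Hmx1 libraries kept a smaller share of its level in the Hoxa deletion. This rank is a description only, since Zfp787 was chosen by its low level in the Hoxa deletion. The limit of 5 CPM also used only the libraries of the other deletions.

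**Figure D1:**
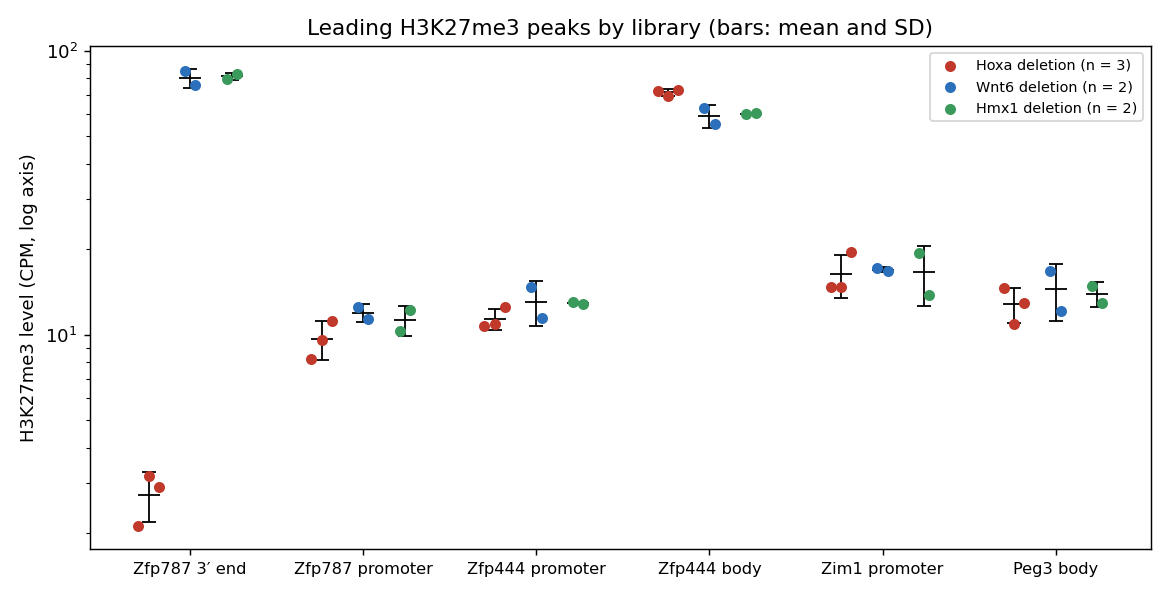
H3K27me3 level in CPM (log axis) of the leading peaks, with a point for each library (red, Hoxa deletion, n = 3; blue, Wnt6 deletion, n = 2; green, Hmx1 deletion, n = 2) and black marks for mean and SD. The 3 Hoxa libraries lie between 2.12 and 3.17 CPM at the Zfp787 3′ end, below all others, while at the Zfp787, Zfp444 and Zim1 promoters and in the Peg3 body their range overlaps that of the other deletions pooled, and in the Zfp444 body they lie above it.

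The promoter peak of the same gene did not share this pattern. At chr7:6155552-6156376, which contains the Zfp787 promoter window printed above, the level was 8.23, 9.55 and 11.2 CPM in the Hoxa deletion. It was 12.6 and 11.3 CPM in the Wnt6 deletion and 10.3 and 12.2 CPM in the Hmx1 deletion. The Hoxa libraries tended to the lower side but overlapped the others, and their mean was 83.4% of the mean of the others (log2 fold change -0.26). Within a library the ratio of the 3′ end peak to the promoter peak does not depend on scaling. On the log2 scale it averaged -1.83 ± 0.210 (SD, n = 3) over Hoxa libraries and 2.81 ± 0.0962 (SD, n = 4) over the rest. The promoter thus held fewer counts than the 3′ end in the Wnt6 and Hmx1 deletions and more in the Hoxa deletion.

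On the other side, 8.21 kb beyond the 3′ end peak, a weak peak at chr7:6123120-6123566 had 2.12, 2.83 and 4.19 CPM in the Hoxa deletion. It had between 2.88 and 3.72 CPM in the other 4 libraries, which these values span, and the Hoxa mean was 91.4% of theirs. The lowered run, counted as consecutive peaks in which every Hoxa library was under 50% of the mean of the others, therefore held 1 peak of 1.69 kb. The peaks that flank it are 32.0 kb apart, and the sequence between them holds no other peak, so the decrease was not measured more finely than that.

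Zfp444 lies next to Zfp787 on the side of its promoter and had 5 peaks. The peak at chr7:6171687-6172989 contains the Zfp444 promoter window, and its level was 10.7, 10.9 and 12.5 CPM in the Hoxa deletion. It was 14.7 and 11.4 CPM in the Wnt6 deletion and 13.02 and 12.8 CPM in the Hmx1 deletion. All 3 Hoxa libraries were below both Hmx1 libraries but overlapped the Wnt6 libraries, and the Hoxa mean was 87.5% of the others pooled. The strongest Zfp444 peak, in the gene body at chr7:6188702-6190774, went the other way. It had 72.1, 69.1 and 72.9 CPM in the Hoxa deletion, 62.8 and 55.1 CPM in the Wnt6 deletion and 59.8 and 60.3 CPM in the Hmx1 deletion. Every Hoxa library was above every other library, though the log2 fold change of 0.26 was small and under the minimum of 1 for a call. Over all tested peaks, 9.09% had every Hoxa library above the others and 9.19% had every one below. The remaining 3 Zfp444 peaks lay beyond the end of the gene body and held between 0.617 and 8.03 CPM per library. The Hoxa libraries overlapped the other 4 at all 3 peaks, and at the weakest, chr7:6202577-6202819, both Wnt6 libraries were below both Hmx1 libraries.

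The Peg3 domain had 12 peaks, with centres between 563.8 kb and 815.6 kb from that of the Zfp787 3′ end peak. There was 1 at Zim1, which is also within reach of Peg3, 2 within Peg3, and 9 in Usp29. The Zim1 peak at chr7:6696084-6696688 contains the Zim1 promoter window. Its level was 14.7, 14.7 and 19.5 CPM in the Hoxa deletion, 17.2 and 16.7 CPM in the Wnt6 deletion and 19.4 and 13.8 CPM in the Hmx1 deletion. The Hoxa mean was 97.1% of the others, and the groups overlapped, with the lowest library and the second highest both from the Hmx1 deletion.

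In Peg3, the stronger peak lay at chr7:6727452-6728896, downstream of the promoter it shares with Usp29. Its level was 14.6, 10.9 and 12.95 CPM in the Hoxa deletion, 16.8 and 12.1 CPM in the Wnt6 deletion and 14.9 and 12.9 CPM in the Hmx1 deletion. No group stood apart, and the Hoxa mean was 90.5% of the others. The weaker peak at chr7:6707649-6708328, further into the gene, held 1.29 to 3.80 CPM in the Hoxa deletion and 2.26 to 3.72 CPM in the others.

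Usp29 spans most of the domain and had only weak peaks. Over its 9 peaks outside the reach of Peg3, the median per library lay between 1.99 and 2.48 CPM, and the smallest library, replicate 1 of the Hmx1 deletion, held 4 to 21 counts in each. Their summed level was 28.1, 24.2 and 21.01 CPM in the Hoxa deletion. It was 23.3 and 22.5 CPM in the Wnt6 deletion and 18.8 and 24.5 CPM in the Hmx1 deletion. The 3 groups overlapped in the sum. At each of the 9 peaks the Hoxa libraries overlapped the pool of the other 4 libraries, while the Wnt6 and Hmx1 libraries did not overlap each other at 3 of them. Over all tested peaks, both Wnt6 libraries were below both Hmx1 libraries at 17.0% and above them at 18.8%, so nothing is read from this count. The 4 peaks nearest the far end of Usp29 had higher means in the Hoxa deletion, with log2 fold changes from 0.17 to 0.37, and replicate 1 of the Hmx1 deletion had the lowest level at each of these 4 peaks.

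Per kilobase, the 3′ end of Zfp787 was the strongest member in the Wnt6 and Hmx1 deletions, at 47.9 CPM per kb, followed by the Zfp444 body with 28.7, the Zim1 promoter with 27.8 and the Zfp444 peak at chr7:6194248-6194565 with 19.7. The Zfp787 promoter peak had 14.1. In the Hoxa deletion the order began with the Zfp444 body at 34.4 CPM per kb and the Zim1 promoter at 26.98, and the Zfp787 3′ end came last of the 20 members.

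Summed over genes, the decrease was confined to Zfp787 among the 3 sums taken. The 3 Zfp787 peaks summed to 15.4 ± 2.92 CPM (SD, n = 3) in Hoxa libraries and to 95.8 ± 4.21 CPM (SD, n = 4) in the other libraries, or 16.1%. That decrease is the 3′ end peak again, since the weak flanking peak kept 91.4% and the promoter peak 83.4%. The 5 Zfp444 peaks summed to 94.3 ± 3.84 CPM (SD, n = 3) in the Hoxa libraries and to 84.9 ± 5.56 CPM (SD, n = 4) elsewhere. The 12 peaks of the Peg3 domain summed to 56.3 ± 2.97 CPM (SD, n = 3) and 56.4 ± 2.25 CPM (SD, n = 4), so that its mean was 99.8% of the others. This sum joins peaks with lower and with higher Hoxa means, from 71.8% to 147% of the others, both extremes at weak Usp29 peaks. The log2 ratio of Zfp787 to Peg3 domain counts within each library was -2.23, -1.77 and -1.65 in the Hoxa deletion and lay between 0.72 and 0.85 in the other 4 libraries, without overlap.

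Calls came from edgeR's quasi-likelihood test of 74439 peaks and required a log2 fold change beyond 1 in either direction together with an adjusted p (Benjamini-Hochberg) under 0.05. In the Hoxa deletion against the other deletions pooled, 1 of the 20 members was called lower, the Zfp787 3′ end, and none was called higher. Of all tested peaks 1.55% were called, 0.983% lower and 0.566% higher. Since this contrast chose Zfp787, nothing is read from the count. Among all tested peaks, the 5579 on chromosome 8 had a median log2 fold change of -0.59 in the Hoxa deletion. The other 19 members had log2 fold changes between -0.52 and 0.59 with a median of -0.10, where the median of all tested peaks was -0.01, and 12 had a lower and 7 a higher mean in the Hoxa deletion. With more than 1 deletion among the controls the pattern was the same, since the log2 fold change of the 3′ end peak was -4.80 against the Wnt6 deletion and -4.82 against the Hmx1 deletion; these comparisons share the Hoxa libraries.

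**Figure D2:**
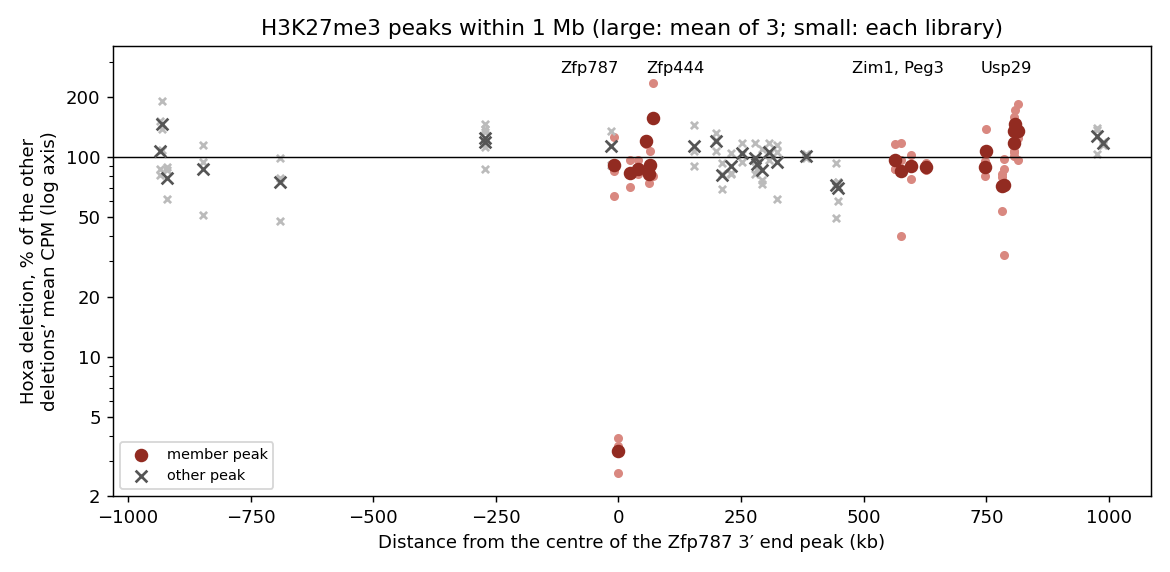
H3K27me3 in the Hoxa deletion as a percentage of the mean CPM of the other deletions (log axis) for the 43 peaks within 1 Mb of the Zfp787 3′ end peak, by distance from its centre in kb. Large symbols are means of 3 Hoxa libraries, small ones the single libraries, circles the members and crosses other peaks. The Zfp787 3′ end lies at 3.37% and all other means between 69.9% and 158%.

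The decrease was also set against the wider neighbourhood. Of 43 peaks within 1 Mb on either side, the Zfp787 3′ end was the 1 called, where 1.55% of all tested peaks were called. Since this contrast chose Zfp787, nothing is read from that count. The other 42 peaks ranged from 69.9% to 158% of the mean of the Wnt6 and Hmx1 libraries, with a median of 95.5%. Chromosome 7 as a whole took between 6.90% and 7.07% of the counts in every library, and the median log2 fold change of its 5017 tested peaks in the Hoxa deletion was 0.01.

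In the comparison of the Wnt6 deletion with the Hmx1 deletion, the Hoxa libraries do not enter the difference, although they share in the scaling, the filter and the estimate of the spread. It asked whether the members differ between the cells that keep the Hoxa cluster. None of the 20 members was called by edgeR, none had an unadjusted p under 0.05, and DESeq2 gave 0 on both counts. Over all tested peaks 0.0887% were called, 0.0578% lower and 0.0309% higher in the Wnt6 deletion, and 5.67% had an unadjusted p under 0.05. At the Zfp787 3′ end the Wnt6 libraries averaged 80.4 ± 6.12 CPM (SD, n = 2) and the Hmx1 libraries 81.4 ± 2.50 CPM (SD, n = 2). This was a log2 fold change of -0.03 (standard error 0.113) with a 95% interval from -0.25 to 0.20 (edgeR adjusted p = 0.994). The order of the 3 deletions at this peak was therefore Hoxa lowest, and Wnt6 and Hmx1 not separated beyond their spread.

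At the Zfp787 promoter the log2 fold change was 0.04, with an interval from -0.33 to 0.41, and at the Zfp444 body -0.04, from -0.26 to 0.18. At the Zim1 promoter it was 0.09, from -0.25 to 0.43, and at the stronger Peg3 peak 0.04, from -0.32 to 0.40. At these peaks a change by the fold minimum of a call would thus lie outside the interval in either direction. Usp29 was measured less precisely: the peak with the largest difference, at chr7:6919265-6919629, had a log2 fold change of -0.60 and an interval from -1.37 to 0.17 (edgeR adjusted p = 0.914). Over the 20 members the values ran from -0.60 to 0.36 with a median of 0.01, equal to that of all tested peaks at 0.01. Both Wnt6 libraries were below both Hmx1 libraries at 3 members and above them at 1, against 17.0% and 18.8% of all tested peaks.

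**Figure D3:**
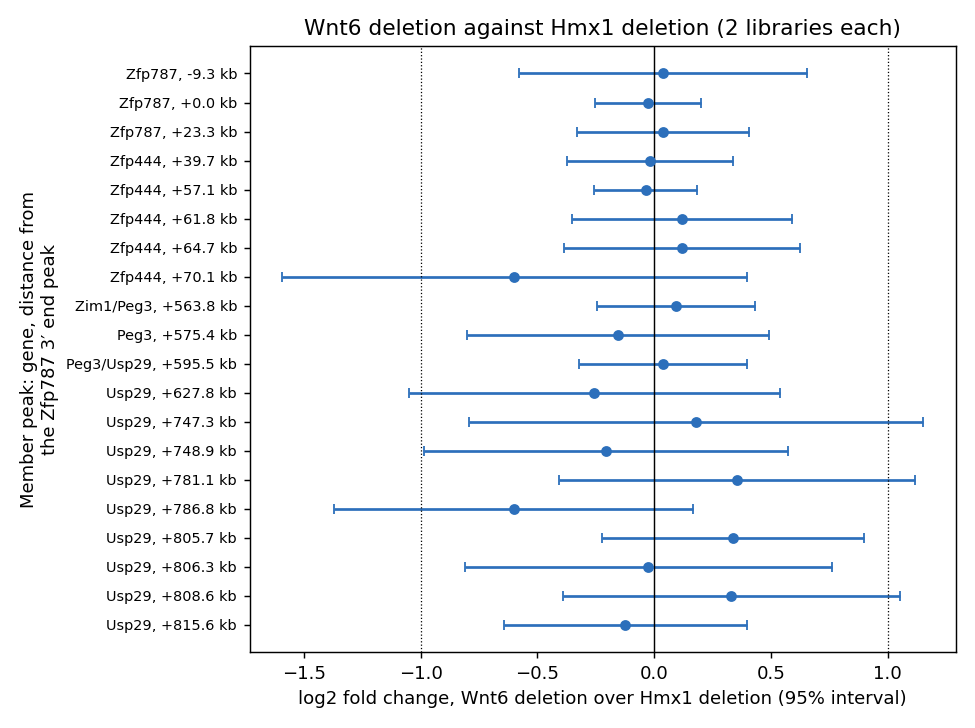
Log2 fold change of the Wnt6 deletion over the Hmx1 deletion (2 libraries each) for the 20 members, named by gene and by distance in kb from the Zfp787 3′ end peak. Points are edgeR estimates, bars 95% intervals, and dotted lines the fold minimum at -1 and 1. Every interval includes 0, and the intervals are narrowest at the Zfp787 3′ end and the Zfp444 body and widest at weak Zfp444 and Usp29 peaks.

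Other genes were counted from lists, which were written with earlier results of these data known. For the Peg3 domain these were Zim2, Zim3, Zfp264 and Apeg3. Zfp264 was not matched in the RefSeq table, Apeg3 was matched as Peg3os, Zim2 had no peak within 10 kb, and the peaks near Zim3 and Peg3os were members already described. Of 17 zinc finger genes of proximal chromosome 7, 15 were matched and 11 had 27 further peaks, none of which was called in either comparison, with median log2 fold changes of 0.12 in the Hoxa deletion and 0.06 between the Wnt6 and Hmx1 deletions. Of 243 peaks at 38 imprinted genes elsewhere, 9 (3.70%) were called lower and 2 higher in the Hoxa deletion, where 0.983% of all tested peaks were called lower and 0.566% higher. Because earlier results were known when the list was written, nothing about imprinted genes is read from these shares. The median log2 fold change of the 243 was 0.01, and that of all tested peaks -0.01. Several of these genes share peaks. The lower ones lay at Mest and its neighbour Copg2, at Peg13 and its host Trappc9, and at H19, and the higher ones at Nap1l5 and at Kcnq1ot1 within Kcnq1. Between the Wnt6 and Hmx1 deletions 1 of the 243 was called, at Nap1l5, against 0.0887% of all tested peaks.

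The peaks most like the Zfp787 3′ end were ranked by the distance between log2 CPM profiles over the 7 libraries, each centred on its mean, among peaks with at least 5 CPM on average and with 1 peak for each gene. The first lay 1931 bp outside the body of H19, an imprinted long non-coding RNA gene at the far end of chromosome 7 (chr7:142580077-142580687), at a distance of 1.84 with Pearson's r of 0.979. The others described here were Mest on chromosome 6, an imprinted gene of the hydrolase fold family (distance 2.71, r = 0.995), Hotairm1, a non-coding RNA gene beside the deleted Hoxa stretch (3.18, r = 0.994), and Nod1, an innate immune receptor gene on chromosome 6 (3.97, r = 0.996). The 7 points of each r fall into 2 levels, those of the Hoxa libraries and the rest, so r says little beyond that split.

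The ranking chose these peaks for being low in the Hoxa deletion and alike in the Wnt6 and Hmx1 deletions, so their levels are a description. At the H19 peak the Hoxa libraries averaged 0.892 ± 0.365 CPM (SD, n = 3), the Wnt6 libraries 12.2 ± 1.26 CPM (SD, n = 2) and the Hmx1 libraries 13.02 ± 0.958 CPM (SD, n = 2). At these ranked peaks, the share of the level kept in the Hoxa deletion was 7.08% at H19, 13.9% at Mest, 17.9% at Hotairm1 and 28.0% at Nod1, against 3.37% at Zfp787. Other peaks of such genes, not ranked here, kept less. The lowest share at any peak within 10 kb was 3.99% at Mest, 4.92% at its neighbour Copg2 and 5.44% at Peg13. A share close to that of Zfp787 was thus not particular to Zfp787.

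**Figure D4:**
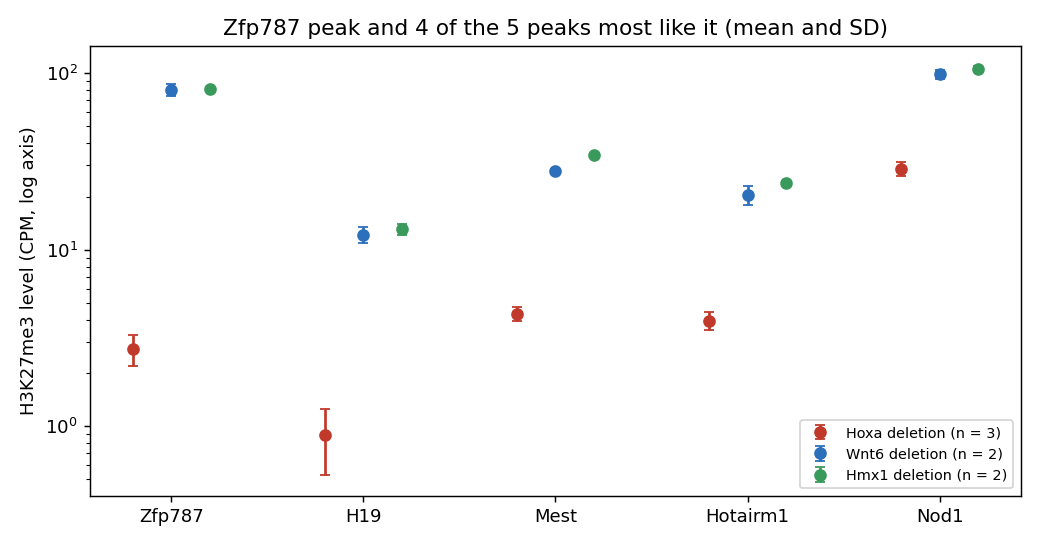
H3K27me3 level in CPM (log axis, mean and SD over libraries) of the Zfp787 3′ end peak and of 4 of the 5 peaks whose profiles over the 7 libraries were nearest to it, for the Hoxa (red, n = 3), Wnt6 (blue, n = 2) and Hmx1 (green, n = 2) deletions. The Hoxa deletion is lowest at every peak drawn, and the gap narrows from 3.37% of the other deletions at Zfp787 to 28.0% at Nod1.

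Library totals ranged from 6016500 to 36563541 counts. The deleted stretches were missing from the libraries of the respective deletion, which kept at most 0.157% of the level at Hoxa, 0.553% at Wnt6 and 0.332% at Hmx1. As a check of the cell type, the strongest peaks near 8 developmental genes that are silent in stem cells had between 54.4 and 157 CPM per kb (median 86.0). Near 8 pluripotency genes, 2 of which (Dppa4 and Tdgf1) had no peak, they had between 5.73 and 55.6 CPM per kb (median 14.1), with the highest at Esrrb.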

How the data were processed

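H3K27me3 Cut&Tag counts from 7 libraries were analysed, and the 7 IgG libraries were not used here. The authors deposited raw counts over a shared list of 74458 peaks (median width 476 bp). Per the labels, Trimmomatic, Bowtie2, SAMtools, Picard, MACS2 and deepTools were used with build mm10; their roles and versions, how the peak list was made and whether reads or fragments were counted are not given in the sources used here. A list called on these libraries can favour peaks that are strong in some of them. The convention for peak starts is not stated.

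The software was R 4.3.3 (edgeR 4.0.16, DESeq2 1.42.0) and, for plots, Python 3.11.15 (matplotlib 3.10.9). filterByExpr removed 19 peaks, TMM factors scaled the libraries, and glmQLFit and glmQLFTest were run on all 7 libraries, with a term for each genotype for Wnt6 against Hmx1 and with the other deletions pooled for Hoxa. The study used DESeq2 and the same thresholds. Standard errors were derived from the F statistic, and profiles in log2 CPM had 2 as prior count. A deleted stretch was the longest run of peaks under 10% of the other deletions. Named peaks were all members, the leading peak being that with the highest mean CPM, plus the peaks of the 5 genes nearest in profile, of which 1 is not reported here. The members, lists and tests were chosen with earlier results of these data known. Gene bodies and promoter windows came from RefSeq GRCm38.p6 tables, which match mm10 and hold no exons. The code was tested on simulated counts. No genome was used here, so the sequence of the Zfp787 3′ end peak is not printed.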

Additional observations from a re-analysis of the deposited data

How the results depend on the processing

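Of 104 alternative values over 7 results, 100 kept direction and call or moved less than the spread between replicates. The members called in the Hoxa deletion numbered 1 under all 20 alternatives, and those called between the Wnt6 and Hmx1 deletions 0 under all 18. In the main runs 1.55% and 0.0887% of all tested peaks were called in these comparisons. The 1 call is a description only, since Zfp787 was chosen by its low level in the same Hoxa libraries. The log2 fold change of the Zfp787 3′ end peak in the Hoxa deletion lay between -4.96 and -4.73, and the Peg3 domain sum between 97.4% and 103% of the other deletions. The lowered run measured 1.69 kb at limits of 25% and 75% and under every other alternative run. The summed Zfp787 level was 61.1% with a window of 50 kb in place of 10 kb, since that window takes in Zfp444 peaks, and between 14.6% and 17.6% with each library left out. Between the Wnt6 and Hmx1 deletions, the near-zero log2 fold change of the same peak turned to 0.0101 with library totals alone and lay between -0.102 and 0.0539 with each library left out, above 0 without replicate 2 of either deletion, and no adjusted p (edgeR or DESeq2) was under 0.976. Where this left 1 library of a deletion, it was assumed to vary like the other groups. Whether libraries with the same replicate number share more than the number is not stated. In each deletion, replicate 1 was the smallest library. The correlation of deviations between libraries of the same number lay between -0.0411 and 0.0837. It cannot decide the question, since the 2 libraries of the Wnt6 or Hmx1 deletion deviate as mirror images. A replicate block gave 0 members called between Wnt6 and Hmx1 and 1 in the Hoxa deletion. With it the log2 fold changes of the 3′ end peak were -0.03 and -4.84. Weak Usp29 peaks, with as few as 4 counts in the smallest library, are limited by depth.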
